A study of Mus musculus with 6 samples.

Results

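The genes described here are 8 markers of Schwann cells, the glia of peripheral nerves: Sox10, Foxd3, Erbb3, Ngfr, Gfra3, Cdh19, Mbp and S100b. They were taken by symbol from the authors' deposited table of Yeti against wild-type lung mesenchyme, in which each had 1 row, 8 of 29322 genes in all. The table comes from bulk RNA-seq of adult mouse lung, with 3 libraries from Yeti+/- mice, which carry a gain-of-function allele of the interferon-gamma gene Ifng, and 3 from wild-type controls. Both groups were given tamoxifen, and no label ties this to an allele. Cells were sorted as negative for CD45, CD31, Epcam and the dead-cell dye DAPI, per the series design, while the extraction protocol speaks of cultured cells. No label says which lung cells make the interferon, nor whether libraries came from separate animals, so the p-values measure the spread between these libraries, which may be technical.

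Schwann cells arise from the neural crest, ensheath the axons that run through lung tissue, and either wrap them in myelin or, as non-myelinating cells, hold bundles of thin fibres. They are not known to carry the leukocyte, endothelial and epithelial surface proteins used in the sort. Their survival depends on axonal neuregulin, which is read by the receptor pair Erbb2 and Erbb3, and their identity on the transcription factor Sox10.

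Transcripts of all 8 genes were measured, 7 of them at a mean below the median of all tested genes (269 normalized counts), and the receptor gene Erbb3 and the cadherin gene Cdh19 were lower in Yeti beyond the spread between libraries. In the authors' deposited table Erbb3 fell 3.04-fold and Cdh19 fell 2.96-fold, and 0 of the 8 rose. That is 2 of 8 called lower at an adjusted p under 0.05 (DESeq2 Wald test, Benjamini-Hochberg), where 0.994% of the 20212 genes with an adjusted p were called lower and 1.85% higher per the authors' deposited table. At an unadjusted p under 0.05, 4 of the 8 were lower (Sox10 and Gfra3 in addition) and 0 higher, against 4.0% of all tested genes lower and 5.28% higher per the authors' deposited table. The log2 fold change was below 0 for 6 of the 8 genes, with a median of -0.98, whereas 50.2% of all tested genes lay below 0 per the authors' deposited table. Ngfr and Mbp were the members above 0. In bulk libraries, fewer Schwann cells and less of these RNAs per cell cannot be told apart.

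**Figure D1:**
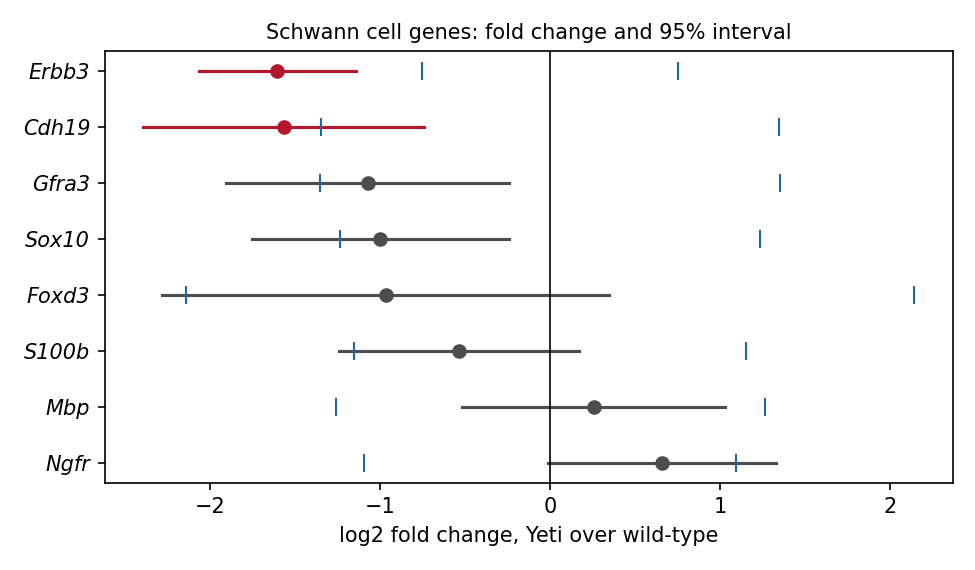
Log2 fold change (Yeti over wild-type, 3 libraries each) of the 8 Schwann cell genes as points, with the 95% interval as a horizontal line, from the authors' deposited table. Red marks genes with an adjusted p under 0.05, and the blue ticks show how far from 0 each gene would have to lie to pass. Erbb3 and Cdh19 lie beyond their ticks, while Foxd3 would have needed a change of 2.14.

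The mean normalized counts of the 8 genes summed to 1463 per the authors' deposited table, a small part of the 26646632 summed over all genes. Mbp alone made up 58.6% of that sum. Fitted group levels, which follow from the overall mean and the fold change where groups are of equal size, summed in wild-type and Yeti to 1547 and 1378 normalized counts for all 8 genes. Without Mbp the sums were 766 and 446 normalized counts. Levels are compared between genes per kilobase of exon, and on that scale the mean ran from 7.49 normalized counts per kilobase for Foxd3, through 14.0 for Cdh19, 16.3 for Sox10, 17.7 for Gfra3, 26.0 for S100b, 40.8 for Erbb3 and 46.3 for Ngfr, to 101 for Mbp. For scale, the fibroblast receptor gene Pdgfra had a mean of 3657 normalized counts per kilobase. Since the table holds no values per library, the spread between libraries is known only through the standard error (SE) of each fold change, and the order of neighbouring levels, such as Sox10 and Gfra3, was not tested.

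**Figure D2:**
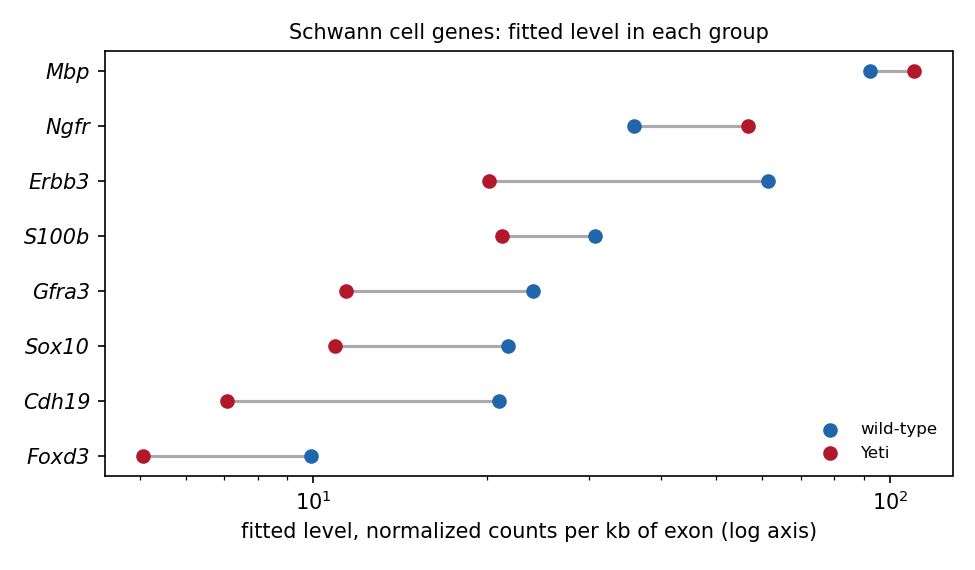
Fitted level of each Schwann cell gene in wild-type (blue) and Yeti (red), in normalized counts per kilobase of exon on a log axis, ordered by mean level. Levels are derived from the authors' mean count and fold change and carry no error of their own. Mbp and Ngfr have the Yeti point on the right and the other 6 genes have it on the left.

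The transcription factor genes were low and lay below 0. Sox10, the factor that Schwann cells need at every stage from neural crest to myelin (ENSMUSG00000033006, GRCm38 chromosome 15, 79154908 to 79165240, minus strand), had fitted levels in wild-type and Yeti of 66.4 and 33.2 normalized counts. The log2 fold change of Sox10 was -0.998 ± 0.39 (SE) per the authors' deposited table, p = 0.00977 and adjusted p = 0.199, so it did not pass. Its 95% interval for the Yeti level ran from 29.6% to 84.6% of wild-type. Foxd3, a factor of early neural crest and glial precursors (chromosome 4, 99656299 to 99658622), was the least abundant member, with fitted levels in wild-type and Yeti of 23.0 and 11.8 normalized counts. Its log2 fold change was -0.97 ± 0.67 per the authors' deposited table, adjusted p = 0.844, with an interval from 20.6% to 127% of wild-type that covers both a large loss and no change.

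Among the receptors, Erbb3 fell while Ngfr lay on the other side of 0. Erbb3, the neuregulin receptor that signals together with Erbb2 (ENSMUSG00000018166, chromosome 10, 128567523 to 128589652, minus strand), had fitted levels in wild-type and Yeti of 369 and 121 normalized counts. Erbb3 fell by 1.61 ± 0.24 (SE, log2) per the authors' deposited table, adjusted p = 2.1e-09, and ranked 8 by p-value among the 201 genes called lower. The 95% interval put its Yeti level between 23.9% and 45.3% of wild-type. Erbb3 is also made by epithelial cells, whose markers are taken up with those of the other sorted cell types. Gfra3, the co-receptor for the neurotrophic factor artemin (chromosome 18, 34689898 to 34720387), had fitted levels of 47.9 and 22.8 normalized counts in wild-type and Yeti. Its log2 fold change was -1.07 ± 0.42 per the authors' deposited table, p = 0.0114 and adjusted p = 0.218, and so did not pass. Ngfr, the low-affinity neurotrophin receptor that marks immature and non-myelinating Schwann cells and also some mesenchymal cells (chromosome 11, 95568818 to 95587735), had fitted levels in wild-type and Yeti of 124 and 195 normalized counts. The log2 fold change of Ngfr was 0.66 ± 0.34 per the authors' deposited table, p = 0.0550 and adjusted p = 0.567, with an interval from 99.0% to 251% of wild-type. The intervals of Erbb3 and Ngfr do not overlap, but both come from the same libraries and their difference was not tested.

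Cdh19, a cadherin of the Schwann cell lineage (ENSMUSG00000047216, chromosome 1, 110888326 to 110977584, minus strand), was the other member that fell. In wild-type its fitted level was 89.9 normalized counts, against 30.4 in Yeti. Cdh19 fell by 1.57 ± 0.42 (log2) per the authors' deposited table, adjusted p = 0.0107, with a Yeti level between 19.0% and 59.9% of wild-type. S100b, a calcium-binding protein long used to stain Schwann cells (chromosome 10, 76253853 to 76261159), had fitted levels of 45.7 and 31.5 normalized counts (wild-type, then Yeti) and stood at -0.54 ± 0.36 per the authors' deposited table, adjusted p = 0.822. The S100b locus overlaps Dip2a on the opposite strand over 1731 bases but shares 0 exon bases with it. Dip2a, at a mean of 1690 normalized counts, stood at 0.09 ± 0.11 (log2) per the authors' deposited table. Whether counting used strand is not given in the sources used here.

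Mbp, the myelin basic protein gene (chromosome 18, 82475146 to 82585637), was the most abundant member. In wild-type its fitted level was 781 normalized counts, against 932 in Yeti, a log2 fold change of 0.26 ± 0.40 per the authors' deposited table, adjusted p = 0.999. The interval ran from 69.8% to 204% of wild-type, which holds both lower and higher Yeti levels. The locus is known to make, besides the myelin transcripts, the longer Golli forms found in leukocytes and other cells. GENCODE lists 16 Mbp transcripts with starts spread over 88116 bases, and a count per gene does not separate them.

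The coefficient of variation between libraries beyond counting error, as implied by the SE, ran from 0.186 for Erbb3 to 0.510 for Foxd3 across the 8 genes. It is a value of the authors' fitted model and not a spread measured from the libraries. Counting error made up 1.04% of the squared SE for Mbp and 28.6% for S100b, the lowest and highest shares of the 8. Among genes that passed, the smallest ratio of log2 fold change to SE, in absolute size, was 3.19 per the authors' deposited table. That corresponds to a log2 change of 0.75 for Erbb3 and between 1.09 and 2.14 for the other 7 genes. Sox10 would have needed 1.23, Gfra3 1.35 and Foxd3 2.14, each more than its measured change.

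**Figure D3:**
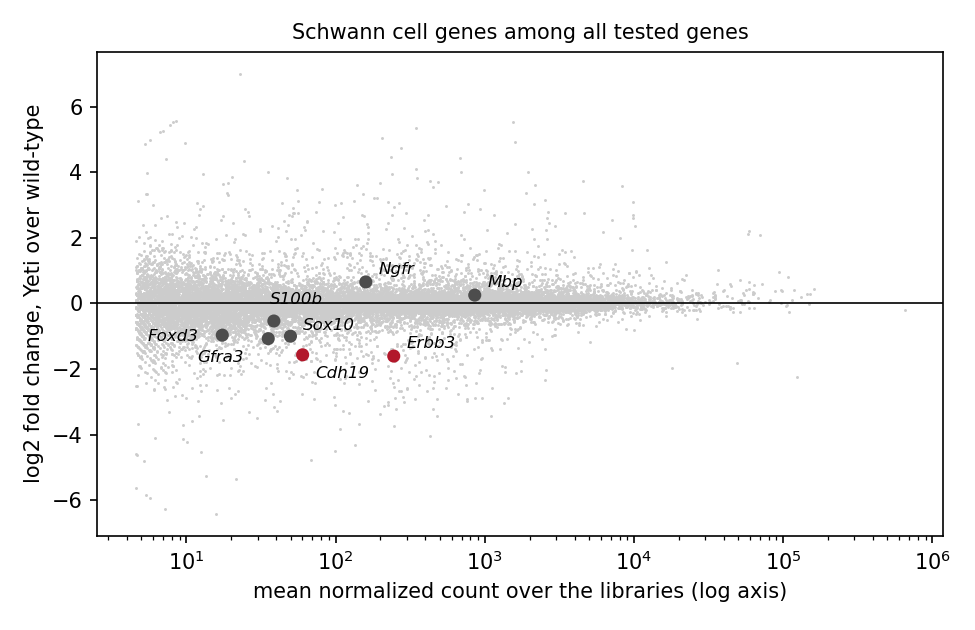
Mean normalized count (log axis) against log2 fold change, Yeti over wild-type, for all genes with an adjusted p (grey) and the 8 Schwann cell genes (large points, red where the adjusted p was under 0.05), from the authors' deposited table. Foxd3, at 17.4 normalized counts, has the lowest mean of the 8 and Mbp, at 856, the highest.

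Of the wider set of myelin genes none passed singly. The myelin list had 18 of 19 genes with a row and 15 tested, of which 0 were called in either direction per the authors' deposited table, with 4 lower and 0 higher at an unadjusted p under 0.05 and a median log2 fold change of -0.28. Mal, a raft protein of myelin, stood at -1.31 ± 0.43 per the authors' deposited table (adjusted p = 0.0676). Pmp22, a myelin gene that fibroblasts also express, was the most abundant at a mean of 13887 normalized counts and stood at 0.04 ± 0.13 per the authors' deposited table.

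The list of non-myelinating and immature Schwann cell genes had 10 of 11 tested, of which 2 fell and 0 rose per the authors' deposited table, with a median of 0.06. Kcna1, a voltage-gated potassium channel, fell by 1.41 ± 0.40 on the log2 scale, from a fitted 87.7 to 33.1 normalized counts, per the authors' deposited table (adjusted p = 0.0198). Chl1, a cell adhesion molecule of glia and neurons, fell by 1.32 ± 0.41 per the authors' deposited table (adjusted p = 0.0435), but missed the threshold with the adjustment extended to every gene that had a p-value (0.0629). Cdh2, the N-cadherin gene, stood at -0.81 ± 0.39 per the authors' deposited table (adjusted p = 0.450). Scn7a, a sodium channel gene and the most abundant of the list, at 1462 normalized counts per kilobase against 16.3 for Sox10, stood at -0.32 ± 0.17 per the authors' deposited table. With the 8 members, the myelin and non-myelinating lists gave 4 called lower and 0 higher of 33 tested genes, beside 0.994% called lower and 1.85% higher among all tested genes, per the authors' deposited table.

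The RefSeq promoter table (GRCm38.p6) held a window of 250 bases before to 50 after the start for 1 of the 4 genes called lower (Erbb3, Cdh19, Kcna1 and Chl1), namely Chl1. It is shown because Sox10 belongs to the SOX family, whose proteins bind ACAAAG and related letters. The window, chr6:103510626-103510925 on the plus strand, holds 1 match, 145 bases before the start. Its ACAAAG lies on the other strand, so the printed strand reads CTTTGT, set in capitals.
Chl1: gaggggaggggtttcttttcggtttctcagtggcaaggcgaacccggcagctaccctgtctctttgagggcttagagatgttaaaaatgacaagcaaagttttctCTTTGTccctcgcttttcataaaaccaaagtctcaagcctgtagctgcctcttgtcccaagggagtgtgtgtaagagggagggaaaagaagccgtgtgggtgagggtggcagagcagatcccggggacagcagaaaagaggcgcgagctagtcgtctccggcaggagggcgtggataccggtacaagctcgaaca
Of all 32851 RefSeq windows of this length, 18.7% hold ACAAAG on either strand. Windows were found for 3 of the 8 members (Foxd3, S100b and Ngfr), and 0 of these 3 hold it, which says only that the letters are not in those windows.

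None of the tested neuregulin ligands or partner receptors of Erbb3 passed. Of 7 tested genes of the neuregulin and ErbB list, 0 were called in either direction per the authors' deposited table, with 0 at an unadjusted p under 0.05 in either direction and a median of -0.05. Erbb2, the signalling partner of Erbb3, stood at 0.13 ± 0.15 per the authors' deposited table. The fitted levels of Erbb2 in wild-type and Yeti were 1070 and 1168 normalized counts. The ligand genes Nrg4 (-0.52 ± 0.35) and Nrg2 (-0.20 ± 0.18) and the feedback inhibitor Errfi1, the most abundant of the list (-0.26 ± 0.41), did not pass, per the authors' deposited table.

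The 14 genes of the neurotrophin list had a median of 0.02 per the authors' deposited table. Ntrk2 (-0.63 ± 0.27), Rtn4r (-1.50 ± 0.56), a receptor for myelin inhibitors of axon growth, and Sort1 (-0.18 ± 0.23), the most abundant, did not pass, per the authors' deposited table. Of 10 genes of the GDNF family and its receptors, 0 were called in either direction per the authors' deposited table, and 1 was higher and 1 lower by an unadjusted p under 0.05, the median being 0.05. Artn, which encodes the ligand of Gfra3, stood at 0.74 ± 0.32 (adjusted p = 0.308) and Gfra1, the receptor for GDNF, at -0.89 ± 0.33 (adjusted p = 0.172) per the authors' deposited table. Gfra2 (0.43 ± 0.23) and Gas1 (-0.10 ± 0.22), the most abundant, did not pass, per the authors' deposited table.

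Of 8 tested transcription factor genes of glia other than Sox10 and Foxd3, 0 were called in either direction per the authors' deposited table, and 1 was higher and 1 lower by an unadjusted p under 0.05, the median being -0.10. Sox2, a factor of immature Schwann cells with a mean of 6.10 normalized counts, stood at -1.58 ± 0.77, and the myelin regulator Egr2, which is also an immediate-early gene, at 0.91 ± 0.38 per the authors' deposited table. Ets1 (-0.61 ± 0.32) and Zeb2, the most abundant (-0.03 ± 0.16), did not pass, per the authors' deposited table.

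Genes of the injury response of Schwann cells gave 2 that rose and 0 that fell among 11 tested per the authors' deposited table, with a median of 0.34. Ccl2, a monocyte chemokine, rose by 1.54 ± 0.44 (adjusted p = 0.0193) and the cytokine gene Lif by 1.29 ± 0.31 (adjusted p = 0.00297), both log2, per the authors' deposited table. Both are made by many cell types, fibroblasts included. Jun, the factor that drives the repair state and the most abundant of the list, stood at 0.34 ± 0.17 per the authors' deposited table (adjusted p = 0.527). The defining repair genes Shh and Olig1 had means of 2.95 and 0.618 normalized counts and no adjusted p per the authors' deposited table.

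**Figure D4:**
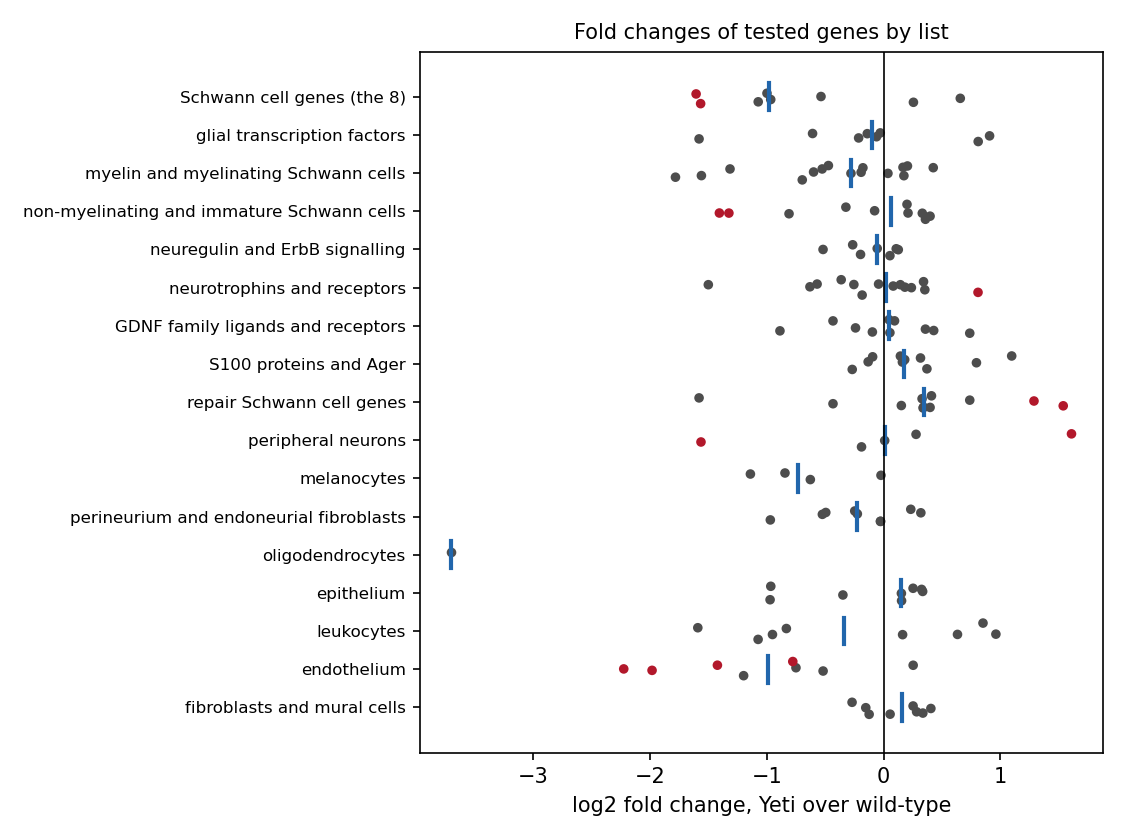
Log2 fold change, Yeti over wild-type, of the tested genes of the 8 Schwann cell genes and of 16 related lists; points are genes, red where the adjusted p was under 0.05, and blue bars are medians, all from the authors' deposited table. The vertical offset of points within a list has no meaning. The median of the 8 genes is -0.98, that of the endothelial list -0.99 and that of the 4 tested melanocyte genes -0.74. The neuregulin, neurotrophin and GDNF lists have medians between -0.05 and 0.05.

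Genes of peripheral neurons, whose cell bodies lie in ganglia, were low. Of 13 genes of peripheral neurons, Chat and Th had no row, 6 had no adjusted p, and of the 5 tested 1 rose and 1 fell per the authors' deposited table. Over all tested genes 1.85% were called higher and 0.994% lower. Prph, a neuronal intermediate filament gene, rose by 1.61 ± 0.43 (adjusted p = 0.00975) and Stmn2, a microtubule regulator, fell by 1.56 ± 0.48 (adjusted p = 0.0404), both log2, per the authors' deposited table. Stmn2 missed the threshold with the adjustment extended to every gene that had a p-value (0.0585). Tubb3, the most abundant, stood at 0.28 ± 0.52 per the authors' deposited table, and the neurofilament gene Nefm had a mean of 1.61 normalized counts. Of 9 genes of the nerve sheath, perineurial and endoneurial, 0 were called in either direction per the authors' deposited table, with 2 lower at an unadjusted p under 0.05 and a median of -0.22. Moxd1 (-0.97 ± 0.45), Itgb4 (-0.52 ± 0.24) and Slc2a1 (0.23 ± 0.16) of that list did not pass, per the authors' deposited table.

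Markers of the cell types that the sort was set to remove were present, and some moved with genotype in the same direction as the Schwann cell genes. Of 8 endothelial markers, 4 fell and 0 rose per the authors' deposited table, with a median of -0.99. The shares over all tested genes were 0.994% called lower and 1.85% higher. Prox1, the lymphatic factor (-2.22 ± 0.33), Emcn (-1.98 ± 0.38) and the angiopoietin receptor family genes Tie1 (-1.42 ± 0.28) and Tek (-0.78 ± 0.22) fell per the authors' deposited table, while Pecam1, the gene of CD31, stood at 0.25 ± 0.46. The fitted levels of the 8 endothelial markers summed in wild-type and Yeti to 6058 and 4174 normalized counts. Of 8 epithelial markers, 0 were called in either direction per the authors' deposited table, with 2 lower at an unadjusted p under 0.05 and a median of 0.15. Epcam stood at -0.97 ± 0.37 (adjusted p = 0.188), Scgb1a1, a club cell gene and the most abundant, at -0.97 ± 0.38 and Cdh1 at 0.33 ± 0.34 per the authors' deposited table. The epithelial sums in wild-type and Yeti were 8087 and 5922 normalized counts. They rest largely on Scgb1a1 and Sftpc, with means of 2941 and 1952 normalized counts. Sftpc stood at -0.35 ± 0.41 per the authors' deposited table. Of the 8 epithelial markers 5 lay above 0, Krt8, Krt18, Krt19 and Cldn7 among them, and 3 below. Of 8 leukocyte markers, 0 were called in either direction per the authors' deposited table, and 2 were higher and 1 lower by an unadjusted p under 0.05, the median being -0.33. The leukocyte sums in wild-type and Yeti were 19800.3 and 20471 normalized counts. Cd4 (-1.59 ± 0.56), Cd68 (0.96 ± 0.45), Itgax (0.85 ± 0.42) and Lyz2 (0.63 ± 0.38) did not pass, per the authors' deposited table. None of these 24 markers was at 0, and their part in the values of the Schwann cell genes was not tested. Of 8 fibroblast and mural cell markers, 0 were called in either direction per the authors' deposited table, with 0 at an unadjusted p under 0.05 in either direction and a median of 0.15, and Col1a1, the most abundant, stood at 0.28 ± 0.17.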

How the data were processed

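The 6 libraries, 3 Yeti and 3 wild-type, were grouped by sample title. Per the submitters' processing notes, which give no versions, FastQC, STAR and DESeq were used with the builds GRCm38 and mm10 (names of the same mouse assembly). How reads were counted, with or without strand and on which annotation release, is not given in the sources used here. What was analysed is the authors' own comparison. Its mean is a signal, namely counts scaled by a factor for each library and then averaged over the libraries, per the file headers. The log2 fold change and its SE, the Wald statistic (a score) and the p-value and adjusted p-value are DESeq2 output by the authors, per the file headers. Summed over genes, the mean normalized count was 26646632, which is the mean scaled depth of a library. Of 29322 genes, 20212 had an adjusted p.

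Computed from these were fitted group levels (equal group sizes), 95% intervals (normal), the coefficient of variation implied by the SE, and counts and medians over 16 related lists with Python 3.11.15, pandas 2.3.3 and scipy 1.17.1. Exon lengths and coordinates came from GENCODE M21 by Ensembl identifier, which matched all 156 listed genes with a row. The alternatives recomputed the adjustment on the whole table, and the calculations were tested on simulated data. Members and lists were chosen with earlier results of these data known. Related genes named are those with an adjusted p under 0.05, the 3 smallest p-values and the most abundant of each list, plus, chosen after their values were seen, Shh, Olig1, Chat, Th, Pdgfra and the overlapping genes. Some genes that this rule names are left out here.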

Additional observations from a re-analysis of the deposited data

How the results depend on the processing

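With the adjustment over all 29308 genes that had a p-value, over genes with a mean of at least 10 normalized counts, at a threshold of 0.1, or after centring fold changes on the median of all tested genes (-9.2e-04), the 8 Schwann cell genes gave 2 lower and 0 higher each time, Erbb3 and Cdh19. Over all genes, these alternatives called 0.604%, 1.14%, 1.31% and 0.99% lower and 1.15%, 2.08%, 2.26% and 1.85% higher, in that order. The adjusted p of Cdh19 ran from 0.00960 to 0.0155 over these alternatives and that of Sox10 from 0.183 to 0.286. With the adjustment over every gene that had a p-value, the count called lower was 1 rather than 2 for the non-myelinating list and 0 rather than 1 for the neuronal list, and at a threshold of 0.1 it was 1 rather than 0 for the myelin list (Mal). More genes adjusted over, or a looser threshold, is what these alternatives change by construction. Summing all rows of a symbol changed 0 of the 8 fitted levels, since each symbol had 1 row. No paired analysis was possible because the table holds no values per library, and for the same reason no library was left out, and whether 1 library decides a value is not known here. Foxd3, with a mean of 17.4 normalized counts, had the widest error of the 8 (SE 0.67).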

Other observations

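The relatives of S100b did not pass. Of 9 other S100 genes and Ager, a receptor for several S100 proteins, 0 were called in either direction per the authors' deposited table, with 0 at an unadjusted p under 0.05 in either direction and a median log2 fold change of 0.17. S100a6, the most abundant, stood at -0.09 ± 0.16 at a mean of 4783 normalized counts, S100a10 at -0.27 ± 0.17, S100a11 at 0.14 ± 0.13 and S100a4 at 0.80 ± 0.51 per the authors' deposited table.

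Melanocytes share the neural crest origin and Sox10 and Erbb3 with Schwann cells. Of 8 melanocyte genes, Tyrp1 and Oca2 had no row and 4 were tested, of which 0 were called in either direction per the authors' deposited table, with 1 lower at an unadjusted p under 0.05. All 4 tested genes lay below 0, with a median of -0.74, whereas 50.2% of all tested genes lay below 0. Pmel stood at -0.63 ± 0.26 (adjusted p = 0.266), Mlana at -1.14 ± 0.66, Dct at -0.84 ± 1.05 and Mitf, which many cells express and the most abundant of the list, at -0.02 ± 0.16 per the authors' deposited table. Among oligodendrocyte genes Olig2 and Nkx2-2 had no row, Mog and Opalin had means of 3.39 and 0.351 normalized counts and no adjusted p, and Mobp stood at -3.70 ± 1.39 (adjusted p = 0.172) per the authors' deposited table.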
